A study of Mus musculus with 6 samples.

Results

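Map2k3 encodes MKK3, a kinase that switches on the p38 stress kinases, and its gene lies inside the segment of mouse chromosome 11 that Dp(11)17/+ mice carry in an extra copy. Here Map2k3 was described with 9 other genes of the p38 cascade in the hippocampus of these mice. The 10 genes were taken by name as a set, and every probe set of the array annotated to exactly 1 of these symbols was used, which gave 21 probe sets of the 45037 measured and 10 of the 18193 measured genes. Each gene was also given by its brightest probe set, the one with the highest mean over all 6 arrays. The arrays came from 3 mice of genotype Dp(11)17/+, here the duplication group, and 3 mice of genotype +/+, here the wild-type group, with 1 array per mouse. All were labelled male, 11 to 14 weeks of age, of the C57BL/6-Tyr c-Brd strain, so all share the Tyr allele of that strain, and the labels name no treatment and no other allele. Dp(11)17 mice serve as a model of the human Potocki-Lupski syndrome, which is caused by a duplication of the matching human region. Values were log2 RMA values of RNA, so neither the amount of kinase protein nor its phosphorylation was measured. The labels name 1 individual per sample but give no litter or cohort, their extraction text lists whole brain and other organs but not hippocampus, and their labelling text speaks of pools. Of the 10 genes, 4 had a mean log2 value of 6 or more at their brightest probe set, and 6 of the 21 probe sets had a mean under 4.

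The p38 cascade is a relay of kinases that cells use to answer stress, cytokines and, in neurons, some forms of synaptic depression. Kinases at its top, such as ASK1 (Map3k5), phosphorylate the middle kinases MKK3 (Map2k3), MKK6 (Map2k6) and MKK4 (Map2k4). MKK3 and MKK6 act on p38, whereas MKK4 acts mainly on the related JNK kinases and also on p38. The p38 kinases exist as alpha (Mapk14), beta (Mapk11), gamma (Mapk12) and delta (Mapk13) forms, and alpha and beta hand the signal on to MK2 (Mapkapk2) and MK3 (Mapkapk3). In the brain p38 alpha is known from neurons, where it takes part in synaptic plasticity, and from microglia, where it drives the production of inflammatory cytokines.

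Some libraries stood apart in ways that touch the results. Xist, an RNA of the inactive X chromosome, had a log2 value of 9.13 in duplication replicate 1 and of 3.06 to 3.69 in the other 5 mice, and the Y-linked Eif2s3y had 2.48 in that mouse and 5.41 to 6.01 in the others, against its label of male. Hippocampal marker genes were detected, but their mean level differed between mice. The mean log2 level over 9 CA1 pyramidal markers was 6.78 to 8.40 in duplication and 8.003 to 8.36 in wild-type mice, and that over 10 dentate granule markers was 4.77 to 6.98 and 6.19 to 6.45. The mean over 13 striatal markers was 5.46 to 7.38 in duplication and 5.37 to 5.91 in wild-type mice, and that over 15 thalamic and habenular markers 4.61 to 6.72 and 4.64 to 5.05. Duplication replicate 3 had the highest striatal and thalamic means and the lowest CA1 and dentate means of the 6 mice, and duplication replicate 1 the second highest striatal mean. Markers were higher in the duplication mean for 10 of 11 astrocyte genes, 11 of 11 microglial genes and 9 of 9 oligodendrocyte genes. The counts were 10 of 12 for endothelial and pericyte genes, 5 of 9 for interneuron genes and 5 of 6 for choroid plexus genes. They were 13 of 13 for striatal genes and 14 of 15 for thalamic and habenular genes. For CA1 the count was 0 of 9, for dentate granule cells 2 of 10 and for CA2 and CA3 2 of 7. Over all genes 41.7% were higher. The mean over the 6 choroid plexus markers was 6.60, 4.83 and 6.88 in duplication replicates 1, 2 and 3 and 7.68, 4.42 and 4.70 in wild-type replicates 1, 2 and 3, so both groups held high and low mice and wild-type replicate 1 was highest. The mean microglial level was 6.62 to 7.02 in duplication and 6.55 to 6.75 in wild-type mice. For actin the control probe set at the 3' end exceeded the one at the 5' end, a gap that widens as RNA degrades, by 1.47 to 1.74 in duplication and 1.45 to 1.63 in wild-type mice, and for GAPDH by 0.33 to 0.47 and 0.37 to 0.57. In tissue RNA, fewer cells of a type and less RNA per cell cannot be told apart.

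The comparison of genotypes asked whether the extra copy of Map2k3 goes with more Map2k3 RNA and whether the rest of the cascade, which is not duplicated, differs as well. Map2k3 was higher in the duplication mice by 0.25 on the log2 scale, or 1.19-fold, at its brightest probe set. The other 9 genes were split, with 3 higher and 6 lower, from Mapkapk3 at -0.26 to Map3k5 at 0.21, and their median was -0.07. Over all 18193 genes the median log2 fold change was -0.02, with 41.7% of genes higher. With p-values adjusted over all probe sets (Benjamini-Hochberg), 0 of the 10 genes and 0 of the 21 probe sets passed in limma, with a smallest adjusted p of 0.994, as did 0% of all genes and 0% of all probe sets. At an unadjusted p under 0.05 limma counted 1 of the 10 genes, Map2k3, where 3.17% of all genes were counted, and 2 of the 21 probe sets, both of Map2k3, where 2.82% of all probe sets were counted.

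Map2k3 had log2 values of 6.24, 6.18 and 6.33 in duplication replicates 1, 2 and 3, and of 6.15, 5.85 and 6.01 in wild-type replicates 1, 2 and 3. All 3 duplication mice lay above all 3 wild-type mice, but duplication replicate 2 and wild-type replicate 1 were separated by less than the spread within either group. The duplication mean was 6.25 ± 0.07 and the wild-type mean 6.00 ± 0.15 (SD, n = 3 each). The log2 fold change of 0.25 had an SE of 0.10 and a 95% confidence interval of 0.01 to 0.49 in the limma fit, with an unadjusted p of 0.0448 and an adjusted p of 0.994. Two-sided, the exact permutation p over the 20 ways to label the mice was 0.1, and no smaller p is possible with 3 mice in each group. The 95% confidence interval lay above 0 in 5 of 15 alternative fits. Groups that do not overlap, with duplication higher, were found for 2.7% of all genes, and 9.48% of all genes had a log2 fold change at least as large in size as that of Map2k3. The difference was 0.25 without duplication replicate 1, the mouse with high Xist, 0.21 without duplication replicate 3, the mouse with high striatal and thalamic markers, and 0.18 with duplication replicate 2 alone. It was 0.17 without wild-type replicate 2, which had the lowest value of the 6 mice, and 0.32 without wild-type replicate 1. Within each group the mice stood in the same order for this probe set as for the mean of the choroid plexus markers. Duplication replicate 3 and wild-type replicate 1 were highest, and duplication replicate 2 and wild-type replicate 2 lowest. The dimmer probe set, given below, did not follow that order, since duplication replicate 3 and wild-type replicate 1 were the lowest of their groups there. The part of cell composition in the Map2k3 values was not tested.

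The dimmer probe set of Map2k3 had log2 values of 4.17, 4.15 and 3.87 in duplication mice and 3.71, 3.78 and 3.87 in wild-type mice. Its log2 fold change was 0.28 (SE 0.11, 95% confidence interval 0.02 to 0.53, limma unadjusted p = 0.0371, adjusted p = 0.994). Both probe sets were thus higher in the duplication mean, by similar amounts, but different mice carried the difference. Duplication replicate 3 was the highest mouse at the brighter probe set, at 0.33 over the wild-type mean, and lay only 0.08 over it at the dimmer one, where it was level with wild-type replicate 3. The 2 probe sets are measurements of the same 6 RNA samples and not separate replicates. With the mean over both probe sets the log2 fold change was 0.26.

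**Figure D1:**
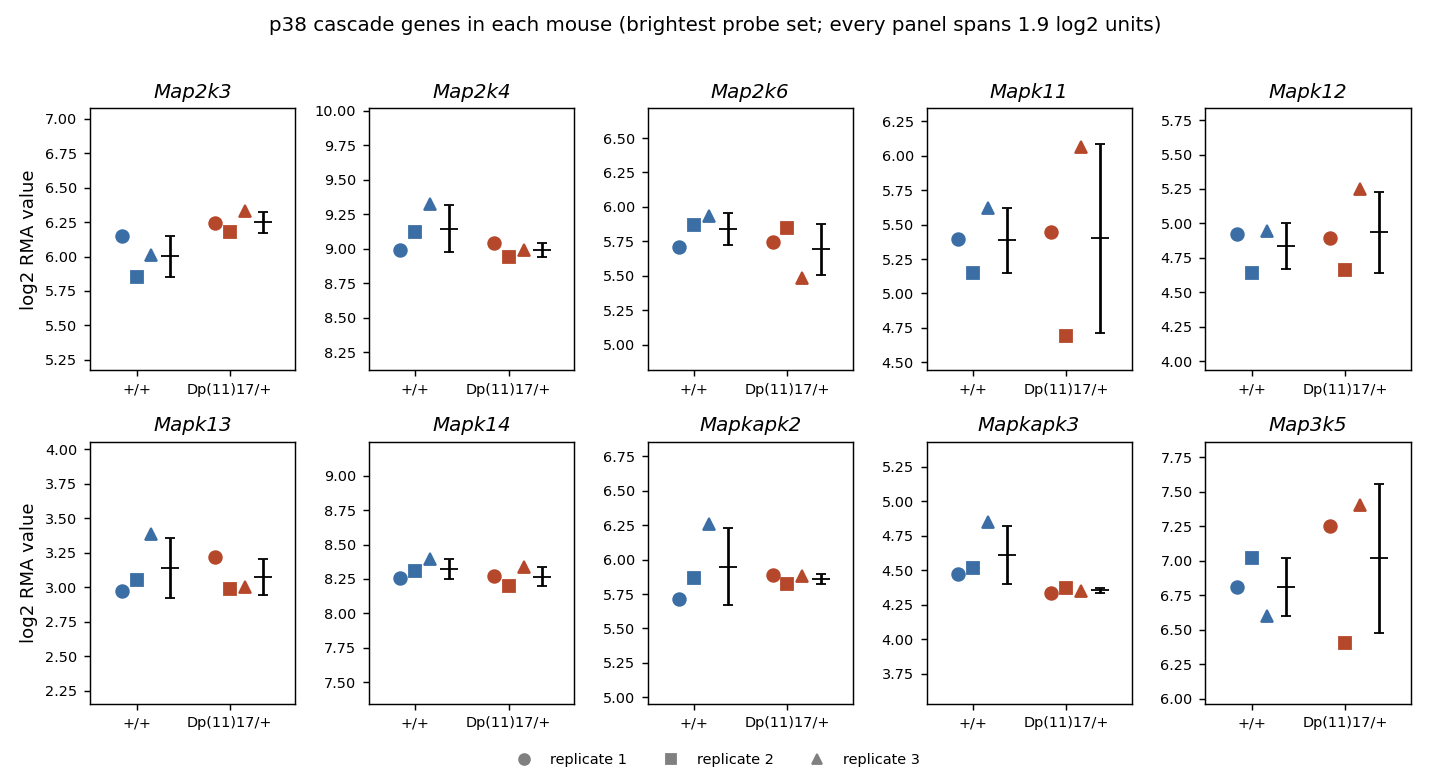
Log2 RMA values of the 10 p38 cascade genes at their brightest probe sets, with 1 point per mouse (blue, +/+; red, Dp(11)17/+; symbols mark the replicate number, which does not pair mice) and the mean and SD of the 3 mice beside each group; every panel spans the same number of log2 units. For Map2k3 the 3 duplication mice lie above the 3 wild-type mice, for Mapkapk3 below them, and in the other 8 panels the groups overlap.

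A copy ratio of 3 to 2 corresponds to 0.58 on the log2 scale. The intervals of both Map2k3 probe sets lay below that value, and that of the brighter one did so in 14 of 15 alternative fits, the exception being the fit that kept duplication replicate 2 alone, with an upper bound of 0.59. How much of a true ratio these probe sets register was not tested. The segment held 20 measured genes whose mean log2 value reached 6, a floor passed by 23.9% to 24.9% of the probe sets of an array. Map2k3 ranked 18 among these 20 by log2 fold change. It was also the dimmest of the 20, at a mean log2 value of 6.125. Next in brightness were Mief2 at 6.22 and Atpaf2 at 6.27, with log2 fold changes of 0.46 and 0.52. The part of brightness in the rank of Map2k3 was not tested. The other 19 had a median of 0.49 and quartiles of 0.38 and 0.56, and 17 of them were above Map2k3. Those below it were Cops3 at -0.17 and Rnf112 at 0.23, the end genes of the segment as taken here. For Cops3 all duplication mice lay below all wild-type mice. Both genes are among the 19, and whether they are present in an extra copy was not tested. The mean over these 19 genes lay 0.38, 0.50 and 0.49 above the wild-type mean in duplication replicates 1, 2 and 3, where Map2k3 lay 0.24, 0.18 and 0.33 above its own. The Map2k3 value minus the mean of the other 19 genes was lower in the duplication mice by a difference of -0.21, with -1.63, -1.80 and -1.65 in duplication and -1.32, -1.62 and -1.50 in wild-type mice. The exact two-sided permutation p of that difference was 0.1, the smallest possible, and the exact permutation p was 0.2 after a repeated quantile normalization. With the mean over all probe sets of each gene the difference was -0.15, also with an exact permutation p of 0.2. Without wild-type replicate 1 the difference was -0.13. The groups were separated by less than 0.01 between duplication replicate 1 and wild-type replicate 2.

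The 6 measured genes nearest to Map2k3 in gene order, 3 on each side, were partly bright and partly dim. On one side lie Tmem11, of the mitochondrial inner membrane, Natd1, an acetyltransferase-like gene, and Map2k3os, a transcript antisense to Map2k3. Natd1 had log2 values of 6.96, 6.93 and 7.10 in duplication and 6.55, 6.29 and 6.17 in wild-type mice, a difference of 0.66 (SE 0.12), the groups being well apart. Tmem11 differed by 0.35 (SE 0.10), also without overlap. Map2k3os was dim, at 4.22 to 4.35 in duplication and 3.96 to 4.47 in wild-type mice, and differed by 0.08 (SE 0.13), with wild-type mice at both ends of the range. On the other side lie Kcnj12, a potassium channel gene, and Tnfrsf13b, a receptor of B cells, both dim, at 0.29 (SE 0.22) and 0.02 (SE 0.12). Beyond them Usp22, a deubiquitinase, had 10.38, 10.26 and 10.15 in duplication and 9.71, 9.94 and 10.04 in wild-type mice, a difference of 0.37 (SE 0.11). Map2k3 thus had a smaller log2 fold change than each of its 3 brighter neighbours, Tmem11, Natd1 and Usp22, but their 95% confidence intervals overlap that of Map2k3, and the single differences were not tested.

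**Figure D2:**
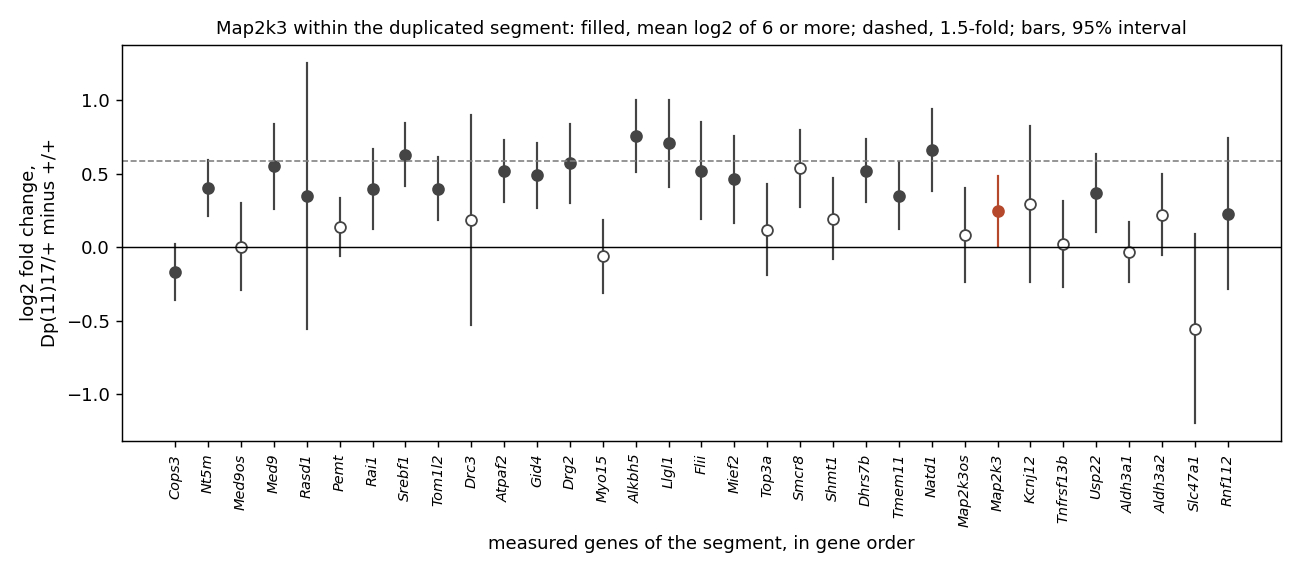
Log2 fold change of each measured gene of the duplicated segment, from Cops3 to Rnf112 in gene order, with its 95% confidence interval from limma; filled points have a mean log2 value of at least 6, the dashed line marks 1.5-fold, and Map2k3 is red. Map2k3 lies at 0.25, below the median of 0.49 of the other filled genes and with its interval under the dashed line.

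The other middle kinases were lower in the duplication mean at their brightest probe sets, by amounts within the spread between mice. They are not all on other chromosomes, since Map2k4 and Map2k6 also lie on chromosome 11, beyond the Rnf112 end of the segment, with 36 and 905 protein-coding genes in between. Map2k6, the closest relative of Map2k3 in the cascade, had 1 probe set, with log2 values of 5.75, 5.84 and 5.49 in duplication and 5.71, 5.87 and 5.94 in wild-type mice. The groups overlapped, with duplication replicate 3 lowest, and the log2 fold change was -0.15 (SE 0.12, 95% confidence interval -0.43 to 0.13). It was -0.22 without duplication replicate 2, -0.04 without duplication replicate 3 and 0.00 with duplication replicate 2 alone. Map2k4 had log2 values of 9.04, 8.94 and 8.99 in duplication and 8.99, 9.12 and 9.33 in wild-type mice at its brighter probe set. Wild-type replicate 3 was the highest mouse, and the log2 fold change was -0.15 (SE 0.10, interval -0.40 to 0.09). It was -0.06 without that mouse and -0.23 without wild-type replicate 1. Its other probe set gave the opposite sign, 0.14 (SE 0.18), with 7.51, 6.93 and 7.47 in duplication and 7.13, 7.39 and 6.96 in wild-type mice, so duplication replicates 1 and 3 and wild-type replicate 2 were high there. The mean over both probe sets gave a log2 fold change of -0.0046. The same 3 mice had the highest means of the striatal markers, and the part of these in the values was not tested.

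Among the p38 kinases themselves, the alpha form Mapk14 had a bright probe set with little spread between mice. Mapk14 had log2 values of 8.27, 8.20 and 8.33 in duplication and 8.26, 8.31 and 8.40 in wild-type mice at its brightest probe set. The groups overlapped, and the log2 fold change of -0.06 (SE 0.08) had a 95% confidence interval of -0.25 to 0.14. Mapk14 had 6 probe sets, of which 2 were higher and 4 lower in the duplication mean, from -0.13 to 0.13, and the 5 dimmer ones had mean log2 values of 2.85 to 4.74. None of the 6 had groups that did not overlap.

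The beta form, Mapk11, had the largest SD between duplication mice of the 10 genes. Its brighter probe set had log2 values of 5.44, 4.69 and 6.06 in duplication and 5.40, 5.15 and 5.62 in wild-type mice. Duplication mice held both the lowest and the highest value, with an SD of 0.69 against 0.24 in wild type, so the log2 fold change of 0.01 (SE 0.32) carried an interval of -0.74 to 0.77. Its sign turned without duplication replicate 3, to -0.32, without duplication replicate 1, to -0.01, and without wild-type replicate 2, to -0.11. The duplication mice stood in the order of replicates 3, 1 and 2, which is also their order by the mean of the striatal and of the thalamic markers. In wild type the order was reversed, with replicate 2 lowest for Mapk11 and highest by both marker means. Wild-type replicate 3 was highest for Mapk11 and lowest by both. The part of these markers in the values was not tested. The dimmer probe set lay at 3.14 to 3.52 in all mice, below the array medians of 3.74 to 3.79, and differed by 0.05 (SE 0.12).

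Mapk12, the gamma form, and Mapk13, the delta form, were dim. The gene table places Mapk11 next to Mapk12 and Mapk13 next to Mapk14, with 0 protein-coding genes in between. Mapk12 had log2 values of 4.90, 4.66 and 5.25 in duplication and 4.92, 4.64 and 4.94 in wild-type mice at its brighter probe set. That is a log2 fold change of 0.10 (SE 0.16), which turned to -0.06 without duplication replicate 3. Its dimmer probe set gave the opposite sign, -0.24 (SE 0.13, limma unadjusted p = 0.0954), so the probe sets of Mapk12 disagreed. Mapk13 had 1 probe set, at 3.22, 2.99 and 3.00 in duplication and 2.98, 3.06 and 3.38 in wild-type mice. These values lay below the array medians, and a difference between genotypes in Mapk13 was not detectable at this signal (-0.07, SE 0.13).

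**Figure D3:**
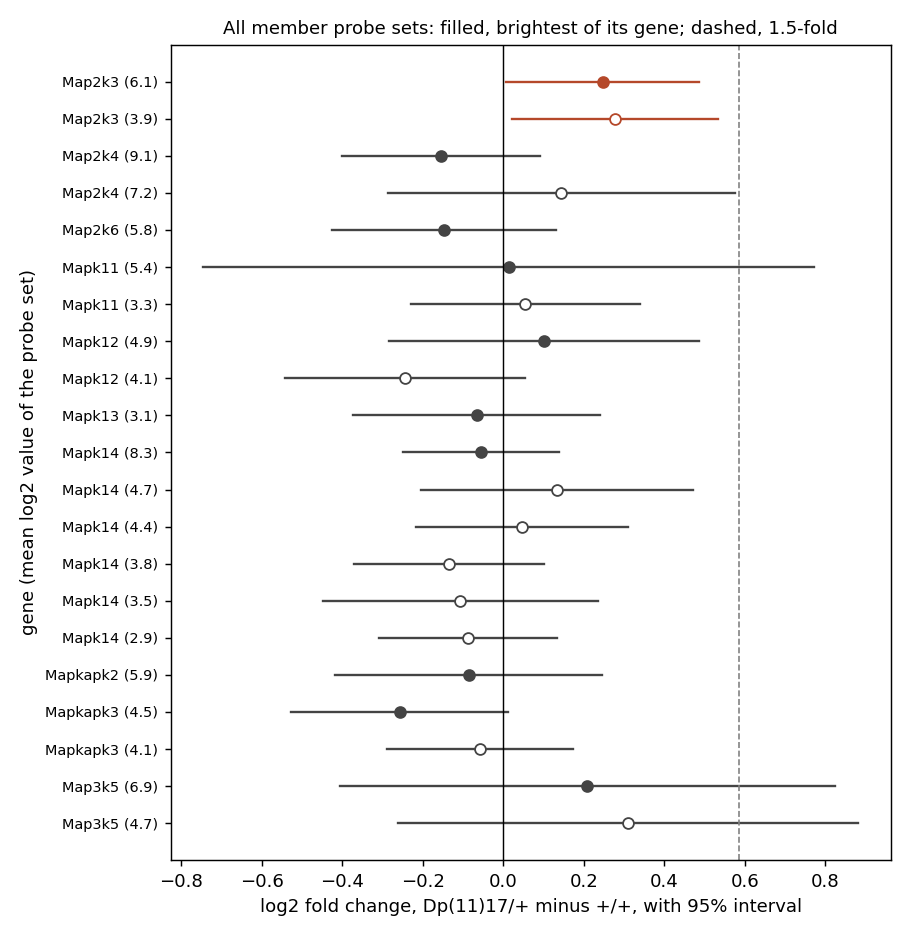
Log2 fold change of all 21 probe sets of the 10 genes, with 95% confidence intervals from limma; filled points are the brightest probe set of a gene, open points the others, labels give the mean log2 value of the probe set, and the dashed line marks 1.5-fold. Only the 2 intervals of Map2k3 (red) lie above 0, and the probe sets of Map2k4, Mapk12 and Mapk14 lie on both sides of 0.

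Downstream of p38, the kinases MK2 and MK3 were lower in the duplication mean, neither past the threshold. Mapkapk2 had log2 values of 5.89, 5.82 and 5.88 in duplication and 5.72, 5.87 and 6.26 in wild-type mice. The duplication mice lay within the wild-type range, and the log2 fold change of -0.09 (SE 0.14) turned to 0.07 without wild-type replicate 3, the highest mouse. Mapkapk3 had 4.33, 4.37 and 4.35 in duplication and 4.47, 4.51 and 4.85 in wild-type mice. All 3 duplication mice lay below all 3 wild-type mice, which was found for 5.59% of all genes. The log2 fold change was -0.26 (SE 0.11, 95% confidence interval -0.53 to 0.01, limma unadjusted p = 0.0591, adjusted p = 0.994). The exact permutation p was 0.1, again the smallest possible. Without wild-type replicate 3 the difference was -0.14, and the dimmer probe set gave -0.06 (SE 0.10) with overlapping groups. The mean over both probe sets gave -0.16.

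At the top of the cascade, Map3k5, which encodes the stress-activated kinase ASK1, had log2 values of 7.25, 6.40 and 7.40 in duplication and 6.81, 7.02 and 6.60 in wild-type mice. Duplication replicates 1 and 3 were the highest mice and duplication replicate 2 the lowest, so the log2 fold change of 0.21 had an SE of 0.26 and an interval of -0.41 to 0.82. The dimmer probe set gave 0.31 (SE 0.24), with 5.09, 4.49 and 5.10 in duplication and 4.16, 4.96 and 4.64 in wild-type mice. Without duplication replicate 2 the difference at the brighter probe set was 0.52 (limma unadjusted p = 0.0107), and with that mouse as the only duplication mouse it was -0.41. The 3 mice with the highest Map3k5 values, duplication replicates 3 and 1 and wild-type replicate 2, also had the 3 highest striatal marker means, at 7.38, 6.65 and 5.91, against 5.37 to 5.46 in the other 3 mice. The part of this in the Map3k5 values was not tested. The intervals of Map3k5 and Mapk11 held the log2 value of 1.5-fold, and those of the other 7 genes besides Map2k3 lay below it.

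**Figure D4:**
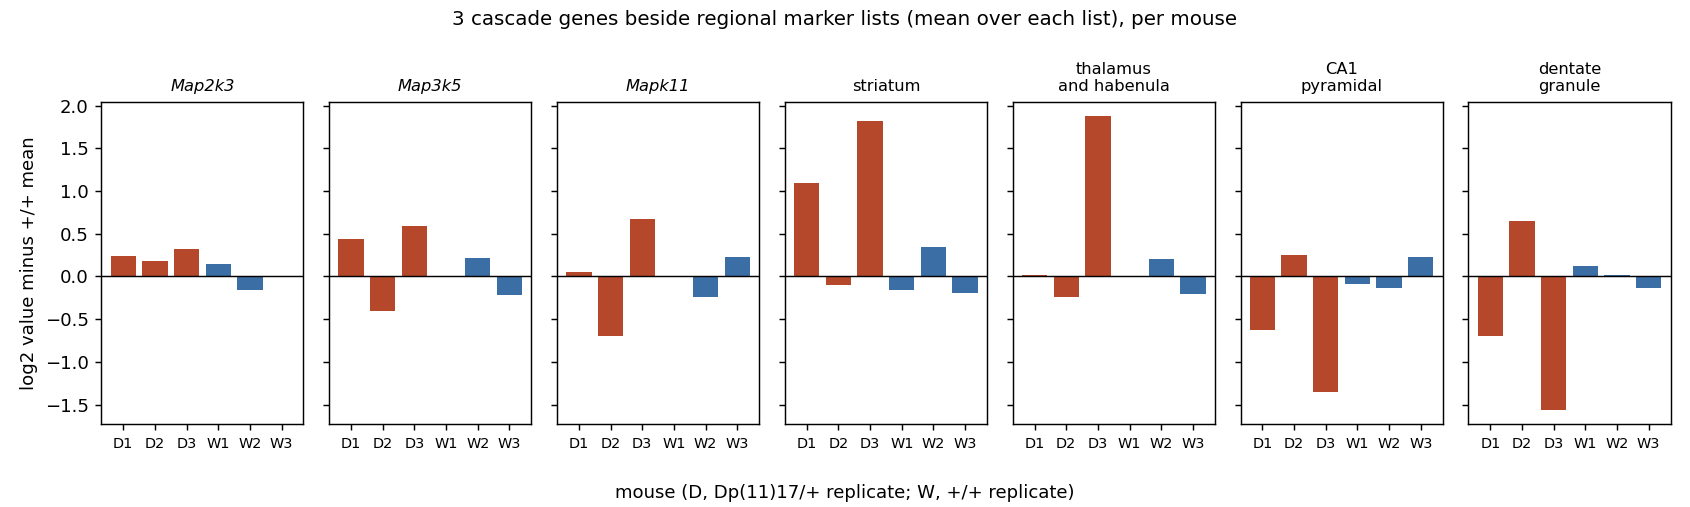
Log2 value of Map2k3, Map3k5 and Mapk11, and mean log2 value over 4 lists of regional marker genes, in each mouse minus the wild-type mean, on 1 shared axis (red, Dp(11)17/+ replicates D1 to D3; blue, +/+ replicates W1 to W3). Map3k5 and the striatal markers are both high in D1 and D3. In D2 Map3k5 is the lowest of all mice, but the striatal markers, at -0.10, lie above W1 at -0.16 and W3 at -0.19. Map2k3 lies above the wild-type mean in D1, D2 and D3.

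To compare the duplicated gene with each other member directly, the Map2k3 value minus that of the other gene was taken in each mouse, and its group means were compared by an exact two-sided permutation test, in 9 comparisons. The difference in log2 fold change was positive in all 9, from 0.04 against Map3k5 to 0.50 against Mapkapk3. In 3 of the 9, those against Map2k4, Mapk14 and Mapkapk3, the 3 differences of the duplication mice all exceeded those of the wild-type mice. The difference was 0.40 (SE 0.16) against Map2k4, 0.30 (SE 0.11) against Mapk14 and 0.50 (SE 0.16) against Mapkapk3, each with an exact p of 0.1, the smallest possible, and an adjusted p of 0.3 over the 9. Against Map2k6 it was 0.39 (SE 0.21, 95% confidence interval -0.17 to 0.96, exact p = 0.2). Against Mapk13 and Mapkapk2 it was 0.31 (SE 0.18) and 0.33 (SE 0.20), with overlapping groups. Without wild-type replicate 3 these were 0.19 and 0.18, and without wild-type replicate 1 they were 0.47 and 0.52. Against Mapk12, Mapk11 and Map3k5 it was 0.15 (SE 0.14), 0.23 (SE 0.37) and 0.04 (SE 0.33), and the signs against Mapk11 and Map3k5 turned without duplication replicate 2, to -0.09 and -0.24. Leaving out duplication replicate 2 gave 0.04 against Mapk12. Leaving out duplication replicate 3 gave 0.26 against Mapk12 and 0.25 against Map2k6. With the mean over all probe sets of each gene, the groups did not overlap in 6 of the 9, with an exact p of 0.1 each, namely against Map2k6, Mapk12, Mapk13, Mapk14, Mapkapk2 and Mapkapk3. On that scale the difference against Mapk12 was 0.33, and the groups overlapped against Map2k4, at 0.27 (exact p = 0.2). All 9 share the Map2k3 values, so they are not independent of each other.

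Other genes of the pathway were taken from 5 lists of 81 genes, of which 73 were measured. Limma called 0 of the 73 after adjustment over all probe sets, with a smallest adjusted p of 0.994, and counted 2 at an unadjusted p under 0.05, 1 higher and 1 lower, or 2.74% against 3.17% of all genes. Groups that did not overlap were found for 8 of the 73, 4 higher and 4 lower, or 11.0% against 8.29% of all genes. The median log2 fold change of the 73 was 0.01, against -0.02 for all genes. Leaving out duplication replicate 2 brought the number of list genes at an unadjusted p under 0.05 to 10, and 8.15% of all genes reached it in that fit.

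Among 21 upstream kinases and adaptors, 13 were higher and 8 lower, with a median of 0.08. Map3k1, the kinase MEKK1, was dim and had 3.64, 3.50 and 3.85 in duplication and 3.46, 3.44 and 3.30 in wild-type mice, a difference of 0.26 (SE 0.11, unadjusted p = 0.0486 by limma). Map3k11, the mixed-lineage kinase MLK3, had 4.88, 4.89 and 4.98 in duplication and 5.03, 5.09 and 5.22 in wild-type mice, a difference of -0.20 (SE 0.09, unadjusted p = 0.0496). Taok1, a kinase that activates MKK3 and MKK6, had 8.18, 8.18 and 8.30 in duplication and 8.07, 8.09 and 7.65 in wild-type mice, a difference of 0.28 (SE 0.13). The groups of these 3 genes did not overlap, and for Taok1 wild-type replicate 3 stood well below the other mice.

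Among 13 phosphatases and scaffolds, which switch p38 off or hold its kinases together, 9 were higher and 4 lower, with a median of 0.07. The smallest p-values belonged to Dusp8, a MAP kinase phosphatase, at 0.11 (SE 0.08), Ppm1d, the phosphatase WIP1, at -0.11 (SE 0.08), and Ccm2, a scaffold of MKK3, at 0.24 (SE 0.21). Dusp1, the stress-induced p38 phosphatase, was picked out after its values were seen, for the widest spread. It had 8.26, 6.71 and 8.997 in duplication and 8.65, 6.98 and 6.75 in wild-type mice, so both groups held high and low mice and the difference of 0.53 had an SE of 0.68. The 3 mice with high Dusp1, duplication replicates 1 and 3 and wild-type replicate 1, were also the 3 with high choroid plexus markers, and the part of these was not tested.

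Among 20 substrates and downstream kinases, 13 were higher and 7 lower, with a median of 0.08. Hspb1, a small heat shock protein phosphorylated through MK2, differed by 0.19 (SE 0.11), the transcription factor Elk4 by 0.14 (SE 0.09) and the RNA-binding Zfp36l1 by 0.19 (SE 0.12), all with overlapping groups. Mef2c, a neuronal transcription factor activated by p38 and also picked out after its values were seen, had 10.22, 8.91 and 10.61 in duplication and 9.71, 9.61 and 9.03 in wild-type mice. Duplication replicates 1 and 3 were high and duplication replicate 2 was the lowest mouse, as for Map3k5, and the difference was 0.47 (SE 0.42).

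Of the parallel JNK and ERK kinases 9 were measured, 4 higher and 5 lower, with a median of -0.06. Map2k1, the ERK activator MEK1, had 9.70, 9.75 and 9.28 in duplication and 9.79, 9.96 and 9.87 in wild-type mice, a difference of -0.30 (SE 0.14), with duplication replicate 3 lowest. Mapk8, the kinase JNK1, had 7.57, 7.52 and 7.75 against 7.79, 7.81 and 7.78, a difference of -0.18 (SE 0.09), and Map2k5, the activator of ERK5, differed by -0.18 (SE 0.10). In Map2k1 and Mapk8 all duplication mice lay below all wild-type mice, by a gap of less than 0.05. Mapk7, the kinase ERK5, was picked out for its place, with 1 protein-coding gene between it and the Rnf112 end of the segment, and it lies outside the segment. It had 4.46, 4.62 and 4.15 in duplication and 4.78, 4.43 and 4.67 in wild-type mice, a difference of -0.22 (SE 0.15) with overlapping groups.

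Of the 10 inflammatory genes that p38 is known to induce, 9 had a mean log2 value under 6. In the duplication mean 1 was higher and 9 lower, with a median of -0.12, where 41.7% of all genes were higher. Tnf, Il1a, Il1b, Il6, Ccl2, Cxcl2, Nos2 and Icam1 had mean log2 values of 2.66 to 3.53, below the array medians of 3.74 to 3.79. Tnf and Il1b, named here as the best known cytokines among them and not by their p, were dim. Tnf lay at 3.31 to 3.59 in duplication and 3.35 to 3.92 in wild-type mice, and Il1b at 3.23 to 3.53 and 3.29 to 3.58, below or around the array medians. Microglial markers were higher in the duplication mean for 11 of 11 genes, as given above. Their mean minus the wild-type mean was 0.38, 0.08 and -0.01 in duplication replicates 1, 2 and 3. In wild-type replicate 2 it was 0.12. Ptgs2, the cyclooxygenase gene, which hippocampal neurons also express, had 4.78, 5.004 and 4.11 in duplication and 5.03, 5.07 and 5.27 in wild-type mice, a difference of -0.49 (SE 0.22, limma unadjusted p = 0.0594). Duplication replicate 3 stood lowest for Ptgs2, and the groups did not overlap. The 3 duplication mice stood in the same order for Ptgs2 as for the mean of the CA1 markers, which was 7.51, 8.40 and 6.78 in replicates 1, 2 and 3. In wild-type mice that mean was 8.003 to 8.36. Duplication replicate 2 thus had the highest CA1 mean of all mice, but less Ptgs2 than every wild-type mouse. The part of the CA1 markers in the Ptgs2 values was not tested. Cxcl2 and Icam1, a chemokine and an adhesion molecule, differed by -0.12 (SE 0.09) and -0.15 (SE 0.12).

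**Figure D5:**
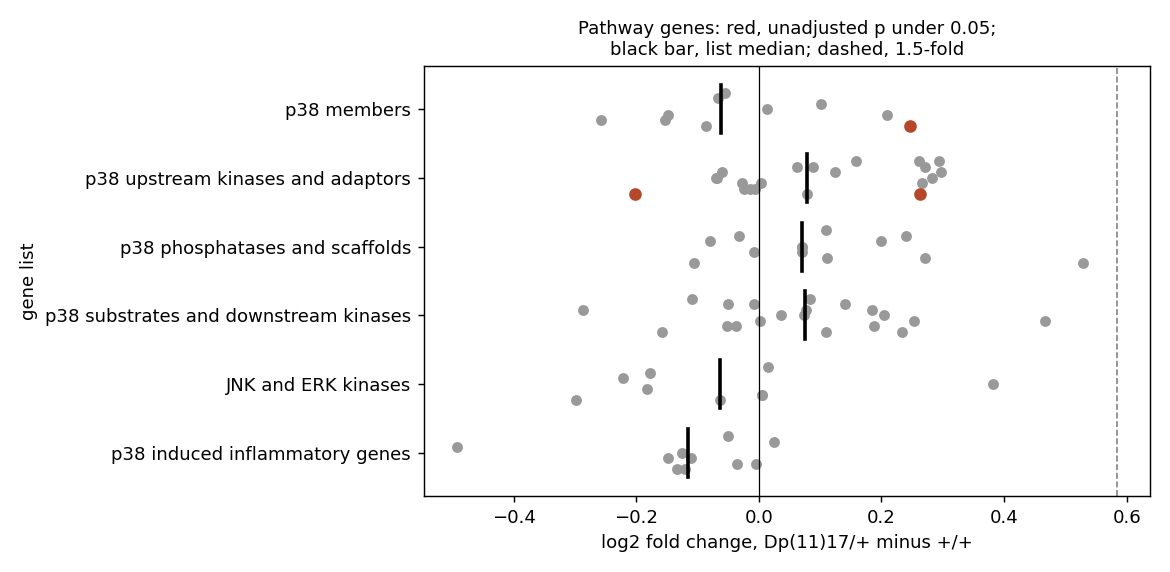
Log2 fold change of each measured gene in the cascade and in 5 lists of related genes, with the list median as a black bar and genes of a limma unadjusted p under 0.05 in red; the dashed line marks 1.5-fold. The medians lie between -0.12 and 0.08, and the 3 red genes are Map2k3, Map3k1 and Map3k11.

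As a description of its pattern, Map2k3 was set against the 7103 other genes whose mean log2 value reached 6, over the 6 arrays. The 5 most alike by Pearson correlation were Ppp1r9a, which encodes the actin-binding neurabin, Serf2, Adipor2, an adiponectin receptor, Pltp, a phospholipid transfer protein, and Usp54, with r of 0.984, 0.980, 0.980, 0.980 and 0.970. None of the 5 lies in the duplicated segment, and of the 50 most alike 1 does. Their groups overlapped in each case, with wild-type replicate 1 above duplication replicate 2. These were the highest of 7103 values, each taken over only 6 arrays that share normalization, so they are given as a description only. Among the cascade genes r with Map2k3 lay between -0.76 for Map2k6 and 0.65 for Mapk12.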

How the data were processed

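Hippocampus RNA of 6 mice was hybridized to Affymetrix mouse arrays. Per the submitters' processing notes the authors used RMA, and the deposited values were taken as log2 values per probe set. The version and genome build are not given in the sources used here. RMA normalizes over arrays, so a value depends on all 6. After 64 control probe sets were left out, 45037 were tested and 34945 had 1 gene symbol. Through Entrez identifiers, 34741 matched the GRCm38.p6 gene table, used for names, chromosomes and gene order. Genotypes were compared with limma 3.58.1 in R 4.3.3 (lmFit, eBayes, two-sided, no covariate), with Benjamini-Hochberg adjustment over all probe sets and a threshold of 0.05. The code was checked on simulated data. Nothing in the labels pairs the mice, and p-values measure only the spread between them. Named were all members, the 3 genes of smallest p per list, 3 measured neighbours on each side of Map2k3 and the 5 genes most alike, with exceptions stated. Members, lists and tests were chosen with earlier results of these data known. The comparison of Map2k3 with other genes of the segment was added later. Alternatives were filters, scalings, variance priors, array weights, a plain equal-variance statistic, probe set averages and mice left out. The number of arrays limits the precision. Genes without a probe set of their own symbol were not analysed here.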

Additional observations from a re-analysis of the deposited data

How the results depend on the processing

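Map2k3 stayed higher in all 15 alternatives, from 0.17 to 0.32 with single mice left out, and 0 cascade or pathway genes passed the adjusted threshold in any of them. Counts at an unadjusted p under 0.05 moved. The filter on dim probe sets left 9 cascade genes, 15 of their probe sets, without the dimmer one of Map2k3, and 61 pathway genes to test. Of the cascade genes, 0 were counted with that filter, with a repeated quantile normalization, with an intensity trend and robust prior and with the plain statistic, and 2 with arrays centred on their medians. With single mice left out the count was 0 to 2, and Map2k3 was counted only where wild-type replicate 1 was the mouse left out, with unadjusted p of 0.0506 to 0.142 in the other 5 such fits. Of the probe sets, 0 were counted with the filter, the trend and the plain statistic, 1 with quantile normalization, and 0 to 3 with single mice left out. Of the pathway genes, 0 were counted with the filter and with quantile normalization, 1 each with median centring, cyclic loess, the trend, gene means and duplication replicate 2 alone, and 0 to 10 with single mice left out.

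Signs turned for 6 members and for 2 differences between members, and the cause was not tested. Mapk11 lay between -0.32 and 0.37 with single mice left out (-0.0082 and -0.11 without duplication replicate 1 and wild-type replicate 2), at -0.0021 with quantile normalization and at -0.69 with duplication replicate 2 alone. Mapk12 lay between -0.056 and 0.24, at -0.17 with duplication replicate 2 alone and at -0.071 with gene means. Mapk13 lay between -0.15 and 0.056, and at 0.023 with array weights. Mapkapk2 lay between -0.20 and 0.068. With duplication replicate 2 alone, Map2k6 was at 0.0043 and Map3k5 at -0.41, that mouse being given the variance of the other group. The difference of Map2k3 from Map3k5 lay between -0.24 and 0.19, with -0.15 when wild-type replicate 2 was absent, and that from Mapk11 between -0.086 and 0.52. The replicate numbers follow only the order of the records. No paired analysis was possible because the labels give no numbers or litters that the groups share.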
